A study of Mus musculus with 6 samples.

Results

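Intermediate filament genes were compared between a mouse insulinoma line, MIN6, and a line of mouse embryonic stem (ES) cells, D3. The genes are 5 simple keratins (Krt7, Krt8, Krt18, Krt19 and Krt20), vimentin (Vim), nestin (Nes), peripherin (Prph), α-internexin (Ina) and neurofilament light (Nefl). They were chosen by name, and every probe whose platform annotation gives 1 of these 10 symbols was taken, which gave 14 of 45281 probes and 10 of 19057 named genes. Total RNA from 3 samples of passage 21 D3 cells and 3 samples of passage 23 MIN6 cells was measured on Illumina Mouse WG-6 v2.0 BeadChips, 1 array for each sample. D3 cells were grown on gelatin with leukemia inhibitory factor, and MIN6 cells without it and in more serum, both untreated otherwise. Each group is 1 cell line, and MIN6 cells come from a tumor of a mouse that carried a viral T antigen driven by the insulin promoter. Cell type and line of origin therefore cannot be told apart. Culture conditions and passage also differ with the line and cannot be separated from it.

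Intermediate filaments are rope-like polymers of the cytoskeleton. Keratins assemble only as pairs of an acidic (type I) and a basic (type II) chain. Krt8 and its partner Krt18 are the pair of simple epithelia, Krt7 is another type II keratin of ducts and glands, and Krt19 and Krt20 are type I keratins of ducts and of intestinal and bladder lining. Vim is the type III filament of mesenchymal cells and many cultured cells, Prph the type III filament of peripheral neurons, and Nes marks neural progenitors. Ina and Nefl build neurofilaments. In the pancreas, ducts are rich in Krt7 and Krt19, while Krt8 and Krt18 are found in exocrine and islet cells.

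The labels were borne out by the markers of both cell types. All 7 ES cell markers, among them Pou5f1, Nanog and Zfp42, were above background on every D3 array and on no MIN6 array, and all 7 β-cell markers, among them Ins2, Pdx1 and Iapp, showed the opposite. An array had 15563 to 16259 probes above background (34.4 to 35.9%), meaning a detection p under 0.01. Median signals were 134 to 188. Log2 signals correlated across probes at 0.993 to 0.994 within a cell line and 0.835 to 0.838 between the cell lines.

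The promoters of 8 of the 10 genes were matched in a table from RefSeq (GRCm38.p6). The 6 shown are those of the genes that changed (Krt7, Krt8, Vim, Prph and Nes) and of Krt18, the partner of Krt8. Each runs 5′ to 3′ on the gene's strand from 150 bases before to 30 bases after the annotated start, and capitals mark matches, on either strand, to 4 motifs. These are TATAAA, the TATA box, then GGGCGG, the GC box bound by Sp factors, then CCAAT, bound by NF-Y, and last TGANTCA, the site of AP-1. They lie at chr15:101412253-101412432 (Krt7, plus strand), chr15:102004313-102004492 (Krt8, minus strand), chr15:102028066-102028245 (Krt18, plus strand), chr2:13574161-13574340 (Vim, plus strand), chr15:99055024-99055203 (Prph, plus strand) and chr3:87970943-87971122 (Nes, plus strand).
Krt7: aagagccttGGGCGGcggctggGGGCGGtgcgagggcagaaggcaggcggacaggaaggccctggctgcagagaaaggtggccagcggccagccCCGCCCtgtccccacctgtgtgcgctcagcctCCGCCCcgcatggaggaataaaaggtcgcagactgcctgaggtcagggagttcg
Krt8: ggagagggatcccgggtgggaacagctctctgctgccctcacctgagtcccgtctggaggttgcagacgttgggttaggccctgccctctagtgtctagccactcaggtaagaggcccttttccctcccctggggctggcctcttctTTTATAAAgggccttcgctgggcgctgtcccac
Krt18: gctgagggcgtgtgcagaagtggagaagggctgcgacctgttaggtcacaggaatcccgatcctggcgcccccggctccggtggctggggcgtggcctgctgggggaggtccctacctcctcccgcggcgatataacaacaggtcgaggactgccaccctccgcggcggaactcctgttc
Vim: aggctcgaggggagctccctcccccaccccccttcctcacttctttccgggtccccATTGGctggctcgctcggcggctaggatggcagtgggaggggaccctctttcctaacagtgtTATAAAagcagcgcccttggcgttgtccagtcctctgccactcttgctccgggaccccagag
Prph: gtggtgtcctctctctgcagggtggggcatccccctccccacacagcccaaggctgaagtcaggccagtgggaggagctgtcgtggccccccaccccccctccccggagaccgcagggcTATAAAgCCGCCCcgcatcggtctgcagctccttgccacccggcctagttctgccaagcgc
Nes: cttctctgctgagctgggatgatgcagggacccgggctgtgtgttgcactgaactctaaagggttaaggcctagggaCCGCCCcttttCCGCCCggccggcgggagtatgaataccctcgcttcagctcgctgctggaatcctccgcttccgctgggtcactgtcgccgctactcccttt
TATAAA was found in 4 of the 8 windows and in 8.37% of 32851 windows of the same length. In Vim and Prph, both lower in MIN6 cells, it began at positions -32 and -31 from the start. In Krt20 it began at -29, and in Krt8 matches on both strands overlapped across the start itself. GGGCGG was in 4 windows (31% of all windows), those of Krt7, Nes, Prph and Ina, with 4 matches in Krt7. CCAAT was in Vim alone among the 8 (27% of all windows) and TGANTCA in none (4.99%). Krt18 held none of the 4 motifs. A match is a description of the letters and was not tied to the expression values. In the RefSeq table Krt8 and Krt18 are neighbors, with no protein-coding gene between them.

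Of the 10 genes, 2 were upregulated in MIN6 cells (Krt7 and Krt8), 3 were downregulated (Vim, Prph and Nes) and 5 were not called (Krt18, Krt19, Krt20, Ina and Nefl). The signals, linear intensities as deposited, are given here as log2 values after quantile normalization of the 6 arrays. To be called, a probe had to change by 1.5-fold or more with an adjusted p under 0.05 from limma (Benjamini-Hochberg adjustment across every probe). Each gene is represented by its probe of highest mean signal, and its other probe, where there is one, is given beside it. Of all genes, 34.5% were called (17.1% higher, 17.5% lower), and 60.1% of genes above background on some array. The count of 5 in 10 is therefore not far from that of other genes. In 7 of the 10 genes every value of one cell line lay on the same side of the other's, which was so for 54.4% of all genes. Of the 14 probes, 6 were called, 2 higher and 4 lower (of all probes 25.9% were called, 12.5% higher and 13.4% lower), and the cell lines did not overlap in 9 (46.1% of all probes). Where a cell line had no array above background, the fold is given as "at least", a lower bound taken against the dimmest signal each of its arrays could tell from background. As each array measures RNA of a whole culture, fewer cells expressing a gene and less RNA in each cell cannot be told apart.

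**Figure D1:**
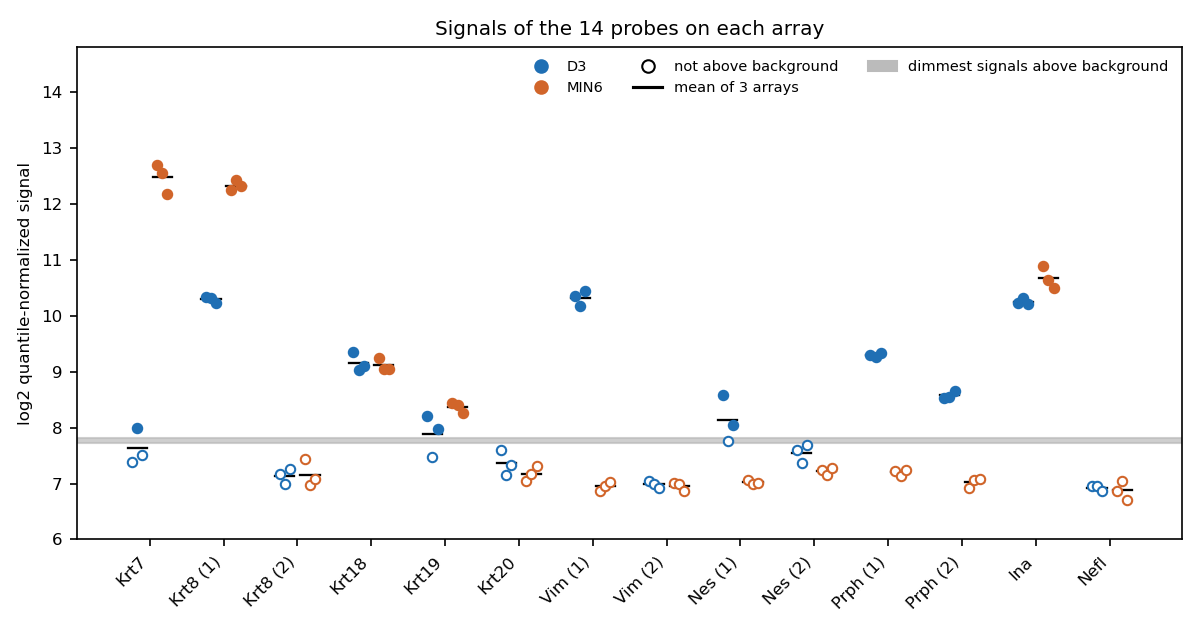
Log2 quantile-normalized signal (y axis) of the 14 probes (x axis, with the brighter and the dimmer probe of a gene numbered) on each of 3 D3 and 3 MIN6 arrays. Filled points were above background (detection p under 0.01), open points were not, bars are means of 3 arrays and the grey band spans the dimmest signals above background. Krt7 and Krt8 are high in MIN6 cells, the brighter Vim probe and both Prph probes are in the background in MIN6 cells only, and the single Krt18 probe overlaps between the cell lines.

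Krt7, a type II keratin of ducts, had the largest fitted change of the 10 genes. Its log2 signals on the D3 arrays were 7.38, 8.0 and 7.51, and on the MIN6 arrays 12.69, 12.54 and 12.18. All 3 MIN6 values lay far above background, while only D3 replicate 2 was above it. The log2 change was 4.84 (SE 0.14; adjusted p = 5.82e-17 from limma), a 28.7-fold difference. With D3 signals raised to the dimmest signal above background, it was 24.5-fold. With normexp background correction the log2 change was 6.20, or 5.66 with that floor.

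Krt8, the type II keratin of simple epithelia, was expressed in both cell lines and higher in MIN6 cells. Its log2 signals were 10.34, 10.31 and 10.23 in D3 cells and 12.24, 12.41 and 12.31 in MIN6 cells. Replicates of a cell line were close together (SD 0.06 and 0.09), and the groups did not overlap. The log2 change was 2.03 (SE 0.10; adjusted p = 1.51e-13 from limma), a 4.09-fold difference. The dimmer Krt8 probe was above background on no array (log2 change 0.02, adjusted p = 0.936), and with the mean of both probes the log2 change was 1.03. RefSeq also lists a Krt8 pseudogene, Krt8-ps, whose contribution to the signal was not tested.

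Krt18, the type I partner of Krt8, was not called. Its log2 signals were 9.34, 9.03 and 9.10 in D3 cells and 9.24, 9.05 and 9.05 in MIN6 cells, above background on all 6 arrays with overlapping groups. The log2 change was -0.04 (SE 0.11; adjusted p = 0.82 from limma), with a 95% confidence interval of -0.26 to 0.18, or 0.832 to 1.13 as a ratio of MIN6 to D3, which leaves out a change of 1.5-fold in either direction. Its sign turned with median scaling (0.16) and cyclic loess (0.08). The changes of Krt8 and Krt18 differed by 2.07 on the log2 scale, or 4.21-fold. The difference of their log2 signals had an SD of 0.14 in D3 and 0.19 in MIN6 cells. The exact two-sided permutation test over 3 and 3 arrays gave p = 0.1, the smallest it can give. The other pairs that were planned had a gene that was below background on some array and were not compared.

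Krt19, a type I keratin of ducts, was dim in both cell lines. Its log2 signals were 8.21, 7.48 and 7.98 in D3 cells and 8.45, 8.41 and 8.27 in MIN6 cells. The groups did not overlap, though by little, since D3 replicate 1 lay close to the lowest MIN6 array and D3 replicate 2 was below background. The log2 change of 0.49 (SE 0.14, 95% confidence interval 0.20 to 0.77) had an adjusted p of 0.00576 from limma but was under 1.5-fold (1.40-fold), so it was not called. It passed with median scaling (0.61) and without D3 replicate 1 (0.65). Krt20, a type I keratin of intestinal and bladder lining, was above background on no array, with log2 signals between 7.05 and 7.60, and has no fold (adjusted p = 0.237 from limma).

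Vim, the type III filament of mesenchymal cells, fell from a clear signal in D3 cells to background in MIN6 cells. Its log2 signals were 10.35, 10.16 and 10.43 in D3 cells and 6.87, 6.95 and 7.02 in MIN6 cells. On the linear scale before normalization these were 1041 to 1448 against 114 to 136. The fitted log2 change was -3.37 (SE 0.10; adjusted p = 7.33e-17 from limma), and the bound was at least 5.94-fold lower, or at least 12.3-fold with normexp background correction. The second Vim probe, annotated with a different transcript accession, was above background on no array (log2 change -0.03, adjusted p = 0.861).

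Prph, the type III filament of peripheral neurons, was likewise above background on every D3 array and on no MIN6 array, with both of its probes. The brighter probe read 9.29, 9.27 and 9.34 in D3 cells and 7.23, 7.13 and 7.25 in MIN6 cells on the log2 scale. Its fitted log2 change was -2.09 (SE 0.09; adjusted p = 6.39e-14 from limma), at least 2.94-fold lower, or at least 5.44-fold with normexp background correction. The dimmer probe read 8.53, 8.54 and 8.65 against 6.92, 7.06 and 7.08, at least 1.78-fold lower (adjusted p = 1.47e-11 from limma), or at least 2.78-fold with normexp. It is the one gene of the 10 whose call was given by more than 1 probe.

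Nes, a filament protein of neural progenitors, was the dimmest of the genes that changed. The log2 signals of its brighter probe were 8.58, 7.77 and 8.05 in D3 cells and 7.06, 7.0 and 7.01 in MIN6 cells. D3 replicates 1 and 3 were above background and D3 replicate 2 was just below it, with the widest spread of the members in D3 cells (SD 0.41). The fitted log2 change was -1.11 (SE 0.14; adjusted p = 9.64e-07 from limma), while the bound was only at least 1.31-fold lower. Without D3 replicate 1 that bound was 1.12-fold. The dimmer probe was above background on no array, and its log2 change of -0.32 (adjusted p = 0.0148 from limma) was under 1.5-fold, but passed with normexp background correction (-0.72).

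Neither neurofilament gene of the 10 was called. Ina, the neurofilament subunit of developing neurons, was above background on all 6 arrays, with log2 signals of 10.23, 10.31 and 10.21 in D3 cells and 10.89, 10.63 and 10.50 in MIN6 cells. Each MIN6 value lay above each D3 value, with MIN6 replicate 1 the highest. The log2 change of 0.42 (SE 0.11, 95% confidence interval 0.20 to 0.65; adjusted p = 0.00249 from limma) was 1.34-fold and so was not called. Nefl, the light neurofilament chain, was above background on no array, with log2 signals of 6.71 to 7.05.

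**Figure D2:**
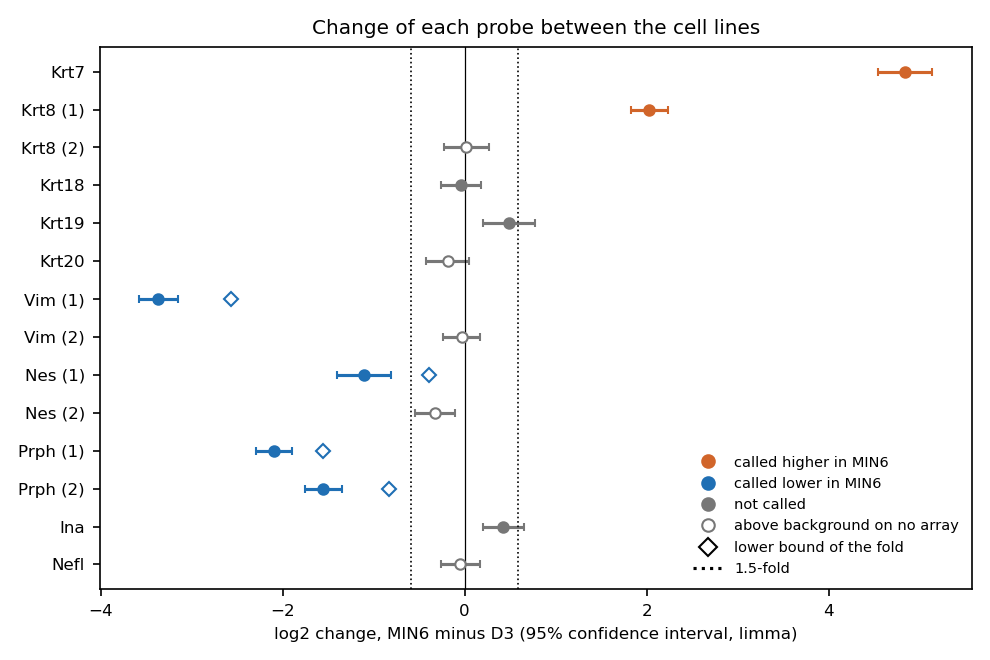
Log2 change of each of the 14 probes, MIN6 minus D3 (x axis, points with the 95% confidence interval from limma), with 1.5-fold marked by dotted lines. Open circles were above background on no array and diamonds mark the lower bound of the fold, which for Vim lies at -2.57 and for Nes at -0.39.

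Most other keratins were at background. Of 44 measured, 38 were above background on no array, 2 were higher in MIN6 cells, 2 fell and 40 did not pass. Their median log2 change was -0.02 (-0.01 over all genes), and 9.09% were called (34.5% of all genes). Krt42 and Krt17, both type I keratins, were above background on every D3 array and on no MIN6 array. Krt42 read 11.35, 11.44 and 11.43 in D3 cells and 7.51, 7.40 and 7.37 in MIN6 cells on the log2 scale, at least 12.7-fold lower (adjusted p = 1.84e-18 from limma). Krt17 was at least 7.62-fold lower (adjusted p = 2.06e-17 from limma). Krt10, a type I keratin of the upper epidermis, was 2.29-fold higher, with mean log2 signals of 9.88 ± 0.05 in D3 cells and 11.08 ± 0.11 in MIN6 cells (SD, n = 3 each) and no overlap. Krt75, a type II keratin of hair follicles, was 1.59-fold higher but above background on only 1 D3 array, and was not called in the authors' processed values.

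Of 11 other filament proteins outside the keratins, 2 were higher in MIN6 cells, 5 were lower and 4 did not pass. Their median log2 change was -0.04, and 63.6% were called (34.5% of all genes and 60.1% of genes above background on some array). Nefm, the medium neurofilament chain and the chromosomal neighbor of Nefl, was above background on every MIN6 array and on no D3 array. Its log2 signals were 7.28, 7.46 and 6.91 in D3 and 11.65, 11.59 and 11.65 in MIN6 cells, at least 14.4-fold higher (adjusted p = 1.18e-17 from limma). Des (desmin) was at least 2.74-fold lower and Synm (synemin) at least 2.59-fold lower. Sync (syncoilin), like those a filament protein of muscle, was not called (log2 change 0.39, adjusted p = 0.00326 from limma) but passed as higher with normexp background correction. The nuclear lamins Lmnb1 and Lmnb2 were 2.45-fold and 2.26-fold lower, and Iffo2, a filament family orphan, was 3.87-fold lower. Lmna, the A-type lamin, was 1.59-fold higher by its brightest probe, but 4 other Lmna probes that were bright on all 6 arrays were not called (log2 changes of -0.27 to 0.57).

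**Figure D3:**
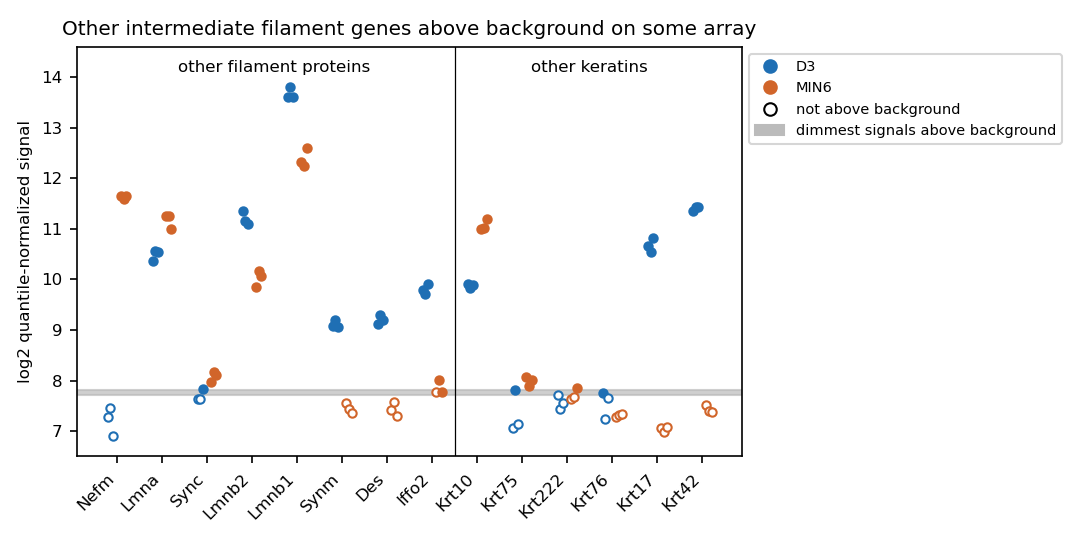
Log2 quantile-normalized signal (y axis) of the other intermediate filament genes that were above background on some array (x axis), on 3 D3 and 3 MIN6 arrays. Open points were not above background and the grey band spans the dimmest signals above background. Nefm is high only in MIN6 cells, and Krt17, Krt42, Des and Synm are above the band only in D3 cells.

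Proteins that bind filaments to junctions and to each other changed in both directions, with 3 of 14 higher, 3 lower and 8 not passing. Their median log2 change was 0.07, and 42.9% were called (34.5% of all genes and 60.1% of genes above background on some array). Pkp2 (plakophilin 2, of desmosomes) was 15.3-fold lower in MIN6 cells, Plec (plectin, a crosslinker) 2.07-fold lower and Pkp3 at least 1.73-fold lower. The plakin Evpl (envoplakin) was 1.68-fold higher and Ppl (periplakin) 1.56-fold higher, although Ppl was not called in the authors' processed values. Dst (dystonin) was 1.91-fold higher by its brightest probe but lower by another (log2 change -1.31). Among 9 kinases and phosphatases that act on filaments, 4 were higher, 1 was lower and 4 did not pass. Their median log2 change was 0.18, and 55.6% were called (60.1% of genes above background on some array). Cdk5r1, the activator of Cdk5, was 8.56-fold higher, Plk1, a mitotic kinase that phosphorylates vimentin, 8.16-fold and Cdk5, a kinase of neurofilaments and nestin, 2.82-fold. Cdk5 was above background on only 1 D3 array, and with D3 signals raised to the dimmest signal above background it was 2.59-fold higher. Prkce was at least 1.52-fold higher, while Mapk8, a kinase of Krt8, was 2.23-fold lower. Another Mapk8 probe, above background on 5 arrays, was not called (log2 change 0.18).

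Among epithelial genes, more were lower than higher in MIN6 cells, where Krt7 and Krt8 were higher. Of 18 epithelial genes measured, 8 were lower in MIN6 cells, 2 were higher and 8 did not pass (median log2 change -0.51). The 55.6% called compare with 34.5% of all genes and 60.1% of genes above background on some array. Cldn6, a tight junction protein, was at least 13-fold lower, Grhl2, an epithelial transcription factor, at least 4.35-fold, Spint1, a protease inhibitor, 4.33-fold and Cldn4 2.45-fold. Cdh1 (E-cadherin) was bright in both cell lines, with mean log2 signals of 12.26 ± 0.14 in D3 cells and 11.37 ± 0.12 in MIN6 cells (SD, n = 3 each), a 1.85-fold decrease. Ovol2, a zinc finger factor, was 2.79-fold higher and Rab25 1.73-fold higher. Of 16 mesenchymal genes, 7 were lower, as Vim was, 2 were higher and 7 did not pass. Their median log2 change was -0.40, and 56.2% were called. The 7 lower ones were all above background on every D3 array and on no MIN6 array. Fn1 (fibronectin) was at least 17-fold lower, Sparc, a matrix protein, at least 12.7-fold, the protease Mmp14 at least 7.48-fold and Lgals1 (galectin 1) at least 7.38-fold, while Snai2, a repressor of Cdh1, was at least 2.85-fold higher and Zeb2, another such repressor, at least 1.42-fold.

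Among neuronal cytoskeleton genes, more were higher than lower in MIN6 cells, where Prph and Nes were lower. Of 14 measured, 5 were higher, 2 were lower and 7 did not pass (median log2 change 0.37). The 50% called compare with 34.5% of all genes and 60.1% of genes above background on some array. Dcx (doublecortin) was at least 20.7-fold higher, Map2 14.7-fold and Stmn3 7.36-fold, while Stmn2, a tubulin-binding protein, was 12.5-fold lower and Dpysl3 at least 2.19-fold lower. Map1b was 2.35-fold higher by its brightest probe, but another that was bright on all 6 arrays changed by only 0.11 on the log2 scale and was not called. Of 12 measured regulators of filament genes, 3 were higher, 6 were lower and 3 did not pass. Their median log2 change was -0.63, and 75% were called. Isl1, an islet transcription factor, was at least 88.2-fold higher, and the AP-1 subunits Fos and Jun were 22.9-fold and at least 3.10-fold higher. Tfap2c was at least 23.7-fold lower, Klf5 15.3-fold, Klf4 13-fold and Sox2, which acts on a Nes enhancer in neural progenitors, at least 12.4-fold. The brightest probe of Rest, the repressor of neuronal genes, was above background on no array. Whether that probe reports Rest RNA was not tested.

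Markers of other cells that could carry these filaments were mostly at background. Of 9 fibroblast markers, 8 were not above background anywhere, Col1a1, Col1a2 and Col3a1 among them, and Thy1 was above it in D3 cells only. Their summed normalized signal was 1509 to 1600 in D3 and 1115 to 1199 in MIN6 cells. This sum and those below also count probes at background. For scale, the dimmest signal of a single probe above background was 211 to 225 on an array. Of 5 duct markers measured, none was above background on a MIN6 array, Sox9 and Cftr included, and their summed signal was 1512 to 1608 in D3 and 707 to 757 in MIN6 cells, Car2 alone being above background on every D3 array. Of 7 acinar markers, 5 were not above background anywhere, Cpa1, Cel and Ptf1a among them, Bhlha15 was above it on all 6 arrays and Cela1 on the D3 arrays (summed signal 1120 to 1204 in D3 and 2556 to 2892 in MIN6 cells). Of 6 neural progenitor markers measured, Pax6 alone was above background, on the MIN6 arrays (summed signal 848 to 892 in D3 and 1175 to 1454 in MIN6 cells). The primitive endoderm markers Dab2, Lamb1 and Gata6 were above background on every D3 array and on no MIN6 array, as Vim and Prph were, while Sox17, Sox7, Gata4 and Afp were above it on no array (summed signal of 8 markers 1848 to 1889 in D3 and 2140 to 2302 in MIN6 cells, Foxa2 being above background in MIN6 cells). Of 6 trophectoderm markers, Tfap2c was above background on every D3 array and Eomes on 1, Cdx2 on every MIN6 array, and Elf5, Gata3 and Hand1 on none (summed signal 5768 to 5852 in D3 and 1107 to 1195 in MIN6 cells). What part such cells had in the filament signals was not tested.

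The genes nearest in pattern to Krt7, Krt8, Vim and Prph, the called members above background on every array of at least 1 cell line (Nes was not), were found by the distance between centered log2 signals over the 6 arrays, among 10853 genes above background on some array. They were Prkca (distance 0.41) and Bmp1 (0.42) for Krt7, Faah (0.05) and Lrfn3 (0.09) for Krt8, Yap1 (0.13) and Syce1 (0.17) for Vim, and Pde1b (0.06) and Nr6a1 (0.06) for Prph. With 2 groups of 3 arrays, such a distance reflects mainly the size of the change between the cell lines, which was 4.78 on the log2 scale for Prkca and -3.36 for Yap1.

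**Figure D4:**
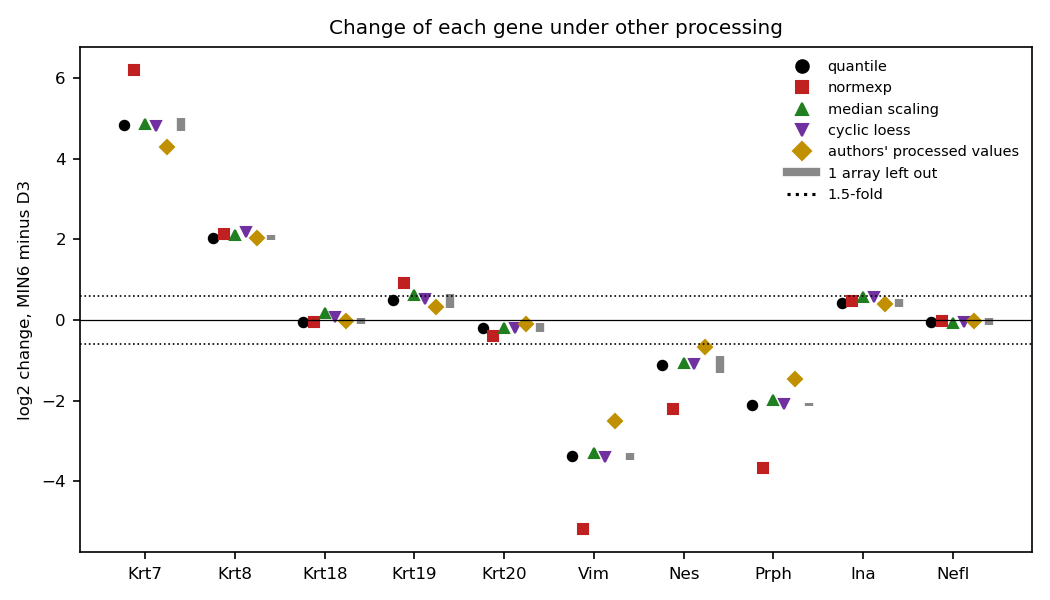
Log2 change, MIN6 minus D3 (y axis), of the brightest probe of each of the 10 genes under 5 ways of processing the signals, with grey bars for the range when 1 array was left out and dotted lines at 1.5-fold. Krt7, Vim, Nes and Prph moved furthest, with normexp background correction (6.20, -5.19, -2.21 and -3.67). Krt8 stayed between 2.02 and 2.17 under the 5 ways of processing, and between 1.99 and 2.10 with 1 array left out.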

How the data were processed

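The authors deposited signal intensities of 45281 probes, on a linear scale, without normalization, and beside each intensity a detection score. Its header names a p-value, but the deposited score is 1 minus p and was turned back. The authors also deposited processed values, quantile-normalized with lumi per the paper's methods, on a scale like log2, transformation not stated (median 7.86, r = 0.994 with the log2 signals computed here), which served as an alternative. Scanner software is not stated either.

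Intensities were quantile-normalized between arrays, taken to log2 and fitted with limma 3.58.1 (lmFit and eBayes) in R 4.3.3, without a block. The study's methods name Student's t-test without adjustment, which served as an alternative. Of the probes, 34885 have 1 gene symbol, 18 several and 10378 none. Symbols were updated through Entrez IDs in RefSeq, for names only. Outside the marker lists, genes named are those that passed with the largest folds or bounds, up to 4 in each direction. All members are named. Genes named beyond that were chosen after their values were seen. The members, lists and tests were chosen with earlier results of these data known. Alternatives were median scaling, cyclic loess, normexp (neqc with an offset of 16), a replicate block, filters on detection, another prior (trended and robust), the authors' processed values, leaving out each array, the mean of a gene's probes, and other thresholds. Normalization, fit and calls were tested on simulated data in which few probes changed, all of them above background on every D3 array. The bounds, the choice of probe and changes as widespread as those here were not tested in this way. Having only 3 arrays a group limits the precision. The series record calls the samples independent replicates, and if they were not grown apart, the p-values cover technical spread alone. Figures were drawn with Python 3.11.15 and matplotlib 3.10.9.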

Additional observations from a re-analysis of the deposited data

How the results depend on the processing

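The 5 calls (Krt7, Krt8, Vim, Prph and Nes) passed under all 18 alternative settings of the fit, and also when a gene's probes were averaged. Their direction held wherever the signals or the arrays used were changed. The detection filters, the other prior, the replicate block, the other fold thresholds and the t-tests did not alter any log2 change. Those settings could not turn a direction, and dropping the fold threshold could not remove a call. Krt19 was added with median scaling and without D3 replicate 1, and Krt19 and Ina with no fold threshold, which raised the members called higher from 2 to 4. Only probes that were not called changed sign: Krt18 with median scaling (0.16) and cyclic loess (0.077) and between -0.11 and 0.050 with 1 array left out, and the dimmer Krt8 probe (-0.11 to 0.11), the dimmer Vim probe (-0.067 to 0.015) and Nefl (-0.14 to 0.039) with 1 array left out. Of all probes, 11717 were called, 17980 with no fold threshold and 7177 at 2-fold or more. With no fold threshold the other keratins called rose from 4 to 7, neuronal cytoskeleton genes from 7 to 11, duct markers from 1 to 3 (also 3 with normexp) and neural progenitor markers from 1 to 3 (2 with normexp and without D3 replicate 1). At 2-fold or more the linkers called fell from 6 to 3, and in the authors' processed values the acinar markers from 3 to 1. A call did not require a signal above background. The acinar marker Amy2a5 was called though above background on no array, as was the duct marker Tspan8 with normexp. Folds of genes at background in a cell line depend most on the background correction, as the values beside them show. With the replicate number as a block the count was again 11717 and no call on a member changed. In this balanced design the block leaves every log2 change as it was, so the equal count says little about a replicate effect. Deviations of same-numbered arrays correlated at 0.03, 0.004 and -0.06, and those of other arrays at -0.05 to 0.05. No effect shared by same-numbered arrays was seen, but such correlations cannot tell whether the samples were handled in pairs.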
